A study of Mus musculus with 10 samples.

Results

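The translation initiation factors (genes named Eif followed by a digit) and elongation factors (Eef followed by a digit) were described in mouse testis with and without the farnesoid X receptor FXRα, which Nr1h4 encodes. Members were all protein-coding rows of the deposited count table whose gene name matched those stems, which gave 63 of the 30719 genes in the table, 55 Eif and 8 Eef genes. The rule left out Eefsec, whose name carries no digit after the stem, and pseudogenes such as Eif3s6-ps2.

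Whole testes were taken at postnatal day 10 from wild-type mice and from FXR-/- (FXRα-null) mice, all on a mixed background of 50% 129sv and 50% C57Bl. The null allele was the only difference between the groups that the labels named, and they gave no treatment and no promoter or cell type that limits the deletion. Each group held 5 mice, each sequenced as its own library, and the 10 libraries shared 1 flowcell. The comparison asked which testicular transcripts differ when the receptor is absent.

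Translation of most mRNAs starts when eIF2, charged with GTP and the initiator methionyl-tRNA, joins the small ribosomal subunit together with eIF1, eIF1A, eIF3 and eIF5, and eIF4F brings this complex to the capped end of the mRNA. After scanning to the start codon and subunit joining, eEF1A delivers aminoacyl-tRNAs and eEF2 moves the ribosome along. Kinases that phosphorylate eIF2α and eEF2, and repressors that bind eIF4E, slow these steps, and germ cells of the testis are known for storing mRNAs whose translation is delayed.

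The libraries held 32330029 to 39655170 counts, and levels are given below in CPM, counts brought to a common library size with TMM scaling factors. The share of mitochondrially encoded genes was 1.88 ± 0.0714% for wild-type mice and 2.23 ± 0.162% for knockout mice (SD over 5 libraries). Nr1h4 had 15, 15, 13, 14 and 26 counts in wild-type libraries 3, 4, 5, 6 and 9 and 8, 9, 11, 11 and 13 counts in knockout libraries 8 to 12, and its log2 fold change was -0.84 (SE 0.234, adjusted p = 0.0347 by edgeR's quasi-likelihood test). That call held in 5 of 15 alternative settings, and counts this low check the labels only weakly, since no source used here gives the deleted part of the gene. Per library, summed levels of Sertoli cell markers were 4027 to 5039 CPM in wild type and 2510 to 3794 in knockout, those of duct epithelium markers 79.6 to 101 and 131 to 192, and those of adipocyte markers 50.7 to 202 and 204 to 1273. Of the markers listed, 6 of 11 Sertoli genes fell, and 9 of 10 duct and 9 of 10 adipocyte genes rose. Over all tested genes, 7.71% fell and 6.17% rose. Of the other lists, 2 of 10 germ cell markers rose, 0 of 12 meiotic prophase markers passed and 1 of 6 Leydig cell markers fell. No marker was at 0 in all libraries. Germ cell markers summed to 1295 to 1821 CPM in wild type and 1638 to 2072 CPM in knockout. In whole testis, fewer cells of a type and less RNA per cell cannot be told apart.

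Stretches around the annotated start of transcription are shown for 4 members to which the results return, taken from RefSeq on GRCm38.p6 and written on the gene's strand, 60 bases before the start and 30 after it. Eif2ak2 fell and Eif5 rose in the knockout, and Eif2s3x and Eif2s3y are the X-linked and Y-linked copies of 1 eIF2 subunit. Eif3e, which also rose, had no entry. The capitals mark the letters GAAANNGAA of the interferon-stimulated response element in Eif2ak2 (chr17:78882543-78882632, minus strand) and the letters CCAAT in Eif5 (chr12:111538041-111538130, plus strand). In Eif2s3x (chrX:94212622-94212711, minus strand) and Eif2s3y (chrY:1010535-1010624, plus strand) they mark the longest run of pyrimidines that overlapped the first transcribed bases.
Eif2ak2: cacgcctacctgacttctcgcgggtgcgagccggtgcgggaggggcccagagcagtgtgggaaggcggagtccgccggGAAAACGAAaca
Eif5: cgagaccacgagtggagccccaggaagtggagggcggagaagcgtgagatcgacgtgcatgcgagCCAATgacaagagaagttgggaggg
Eif2s3x: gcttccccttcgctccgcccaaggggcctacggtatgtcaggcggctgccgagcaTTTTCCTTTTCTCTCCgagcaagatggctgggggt
Eif2s3y: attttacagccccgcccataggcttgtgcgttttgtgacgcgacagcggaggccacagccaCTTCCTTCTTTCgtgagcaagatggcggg

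The pyrimidine run was 16 bases long in Eif2s3x, beginning 5 bases before the start, and 12 bases long in Eif2s3y, beginning at base 2. Pyrimidine runs that begin at the first transcribed base are the defining feature of 5′ TOP mRNAs, which encode many parts of the translation machinery. Neither run began at the annotated first base, and whether either mRNA belongs to that class was not tested. The response element letters of Eif2ak2 began at base 19 after the start and the letters CCAAT of Eif5 at base 6. Both thus lay in transcribed sequence, not upstream of the start.

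Few of these genes passed the test for a difference between the genotypes. In simulated data the test recovered 25.8% of 1.2-fold changes set in 66 genes drawn from genes of all levels. Far fewer genes were changed there than were called here, and that share was not measured for the members. Eif3e, a subunit of eIF3, and Eif5, the GTPase-activating partner of eIF2, rose in the knockout by 1.17-fold and 1.13-fold. Eif2ak2, the double-stranded RNA-activated eIF2α kinase PKR, fell to 0.829 of its wild-type level. The other 59 of the 62 members tested did not pass, among them all 7 elongation factors tested. Eef1a2, the eEF1A copy of neurons and muscle, did not pass the filter on low counts and was not tested.

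Across the whole table, 2576 of 18559 tested genes passed an adjusted p of 0.05, which is 13.9%, with 6.17% higher and 7.71% lower in the knockout. The members' count of 3 of 62 was 4.84%, below that background, and their median log2 fold change was 0.00494 beside 0.01 over all tested genes. Of the members, 33 had a log2 fold change above 0 and 29 below 0, and 44 lay within 0.1 of 0. The median size of the log2 fold change, whatever its sign, was 0.06 over members and 0.13 over all tested genes. For 50 of the 62 members the 95% interval of the fold change lay wholly within 1.2-fold in either direction, against 6486 of the 18559 genes. Both measures depend on how precisely a gene is measured, and the median SE was 0.0491 over members and 0.0923 over all tested genes. Members were not compared with genes of like SE, so these values do not show that the factors were unusually stable. Values of the genotypes did not overlap for 4 members, Eif3e, Eif2ak2, Eif4e and Eif4ebp2, and for 11.6% of all tested genes. The share of all counts that fell on the 63 members was 1.47% to 1.49% in wild type and 1.48% to 1.58% in knockout, with knockout library 8 highest.

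**Figure D1:**
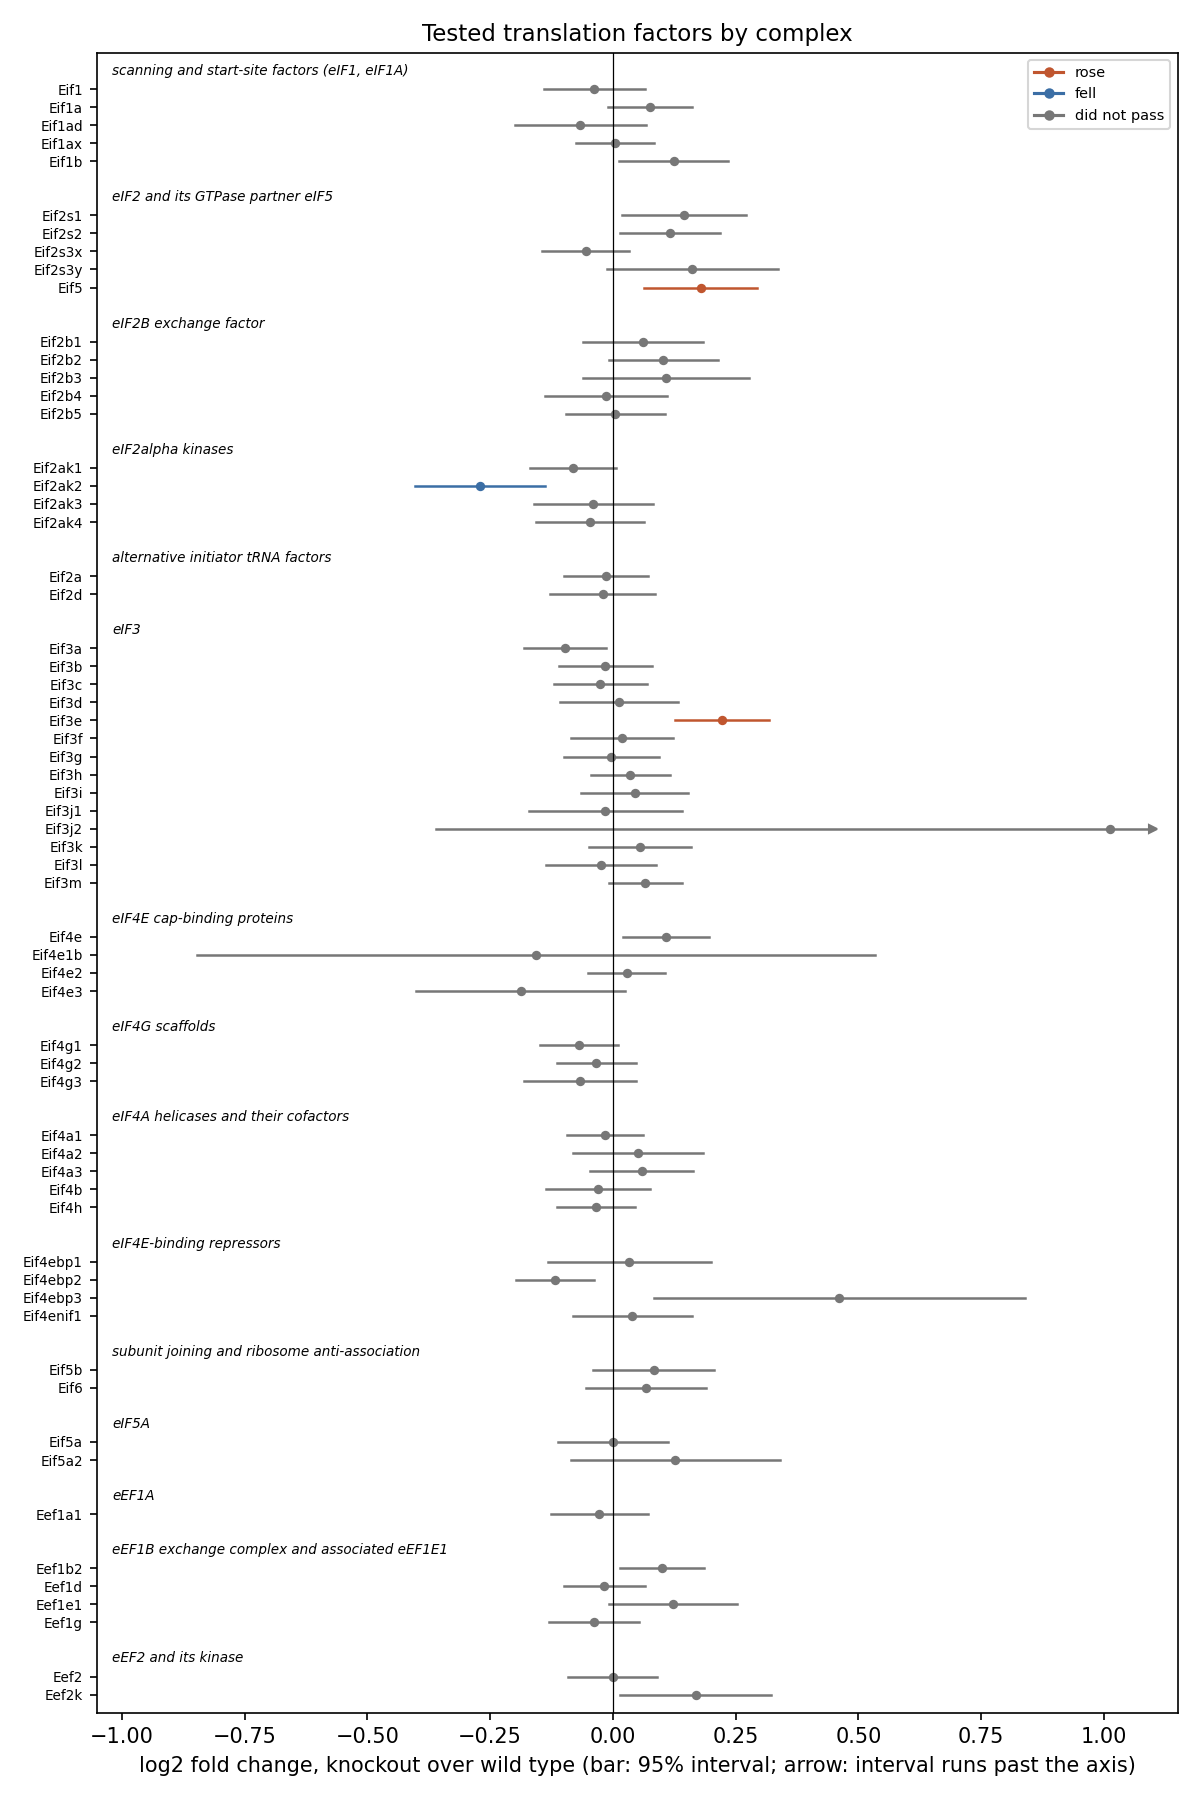
Log2 fold change of each of the 62 tested factors, knockout over wild type, on the horizontal axis, grouped by complex, with points for the estimate and bars for the 95% interval (5 mice per genotype). Eif3e and Eif5 lie to the right in orange and Eif2ak2 to the left in blue, the other 59 did not pass, and the widest intervals belong to the weakly expressed Eif3j2, Eif4e1b and Eif4ebp3.

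Levels per length were ordered as follows. CPM values were divided by the length of the union of exons (CPM per kilobase), since only such values can be compared between genes. Eef1a1, the main eEF1A, stood first at 1190.5 ± 44.2 CPM per kilobase in wild type and 1168 ± 58.6 in knockout (all values are mean ± SD of 5 mice). Eef2, the translocase, followed at 532 ± 17.7 and 531 ± 23.3. The third was Eif5a, the hypusine-carrying factor that relieves stalled ribosomes, at 156 ± 10.8 and 156 ± 6.5 CPM per kilobase. Then came a group of neighbours whose wild-type levels lay within their spread of each other, namely Eif4g2 at 126 ± 1.91, Eef1g at 123 ± 5.22 and Eif3h at 122 ± 3.62. Eef1b2 at 109 ± 3.90, Eif4a1 at 106 ± 3.10 and Eif4a2 at 99.4 ± 9.40 CPM per kilobase formed the next such group.

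At the lower end, Eif4e3 stood at 3.26 ± 0.275 CPM per kilobase in wild type, Eif4ebp3 at 1.08 ± 0.138 and Eif3j2 at 0.850 ± 0.732. Eif4e1b, an eIF4E paralog of oocytes and early embryos, stood at 0.283 ± 0.0904 and Eef1a2 at 0.0870 ± 0.0393. The ends of this order were thus held by the 2 genes for eEF1A.

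**Figure D2:**
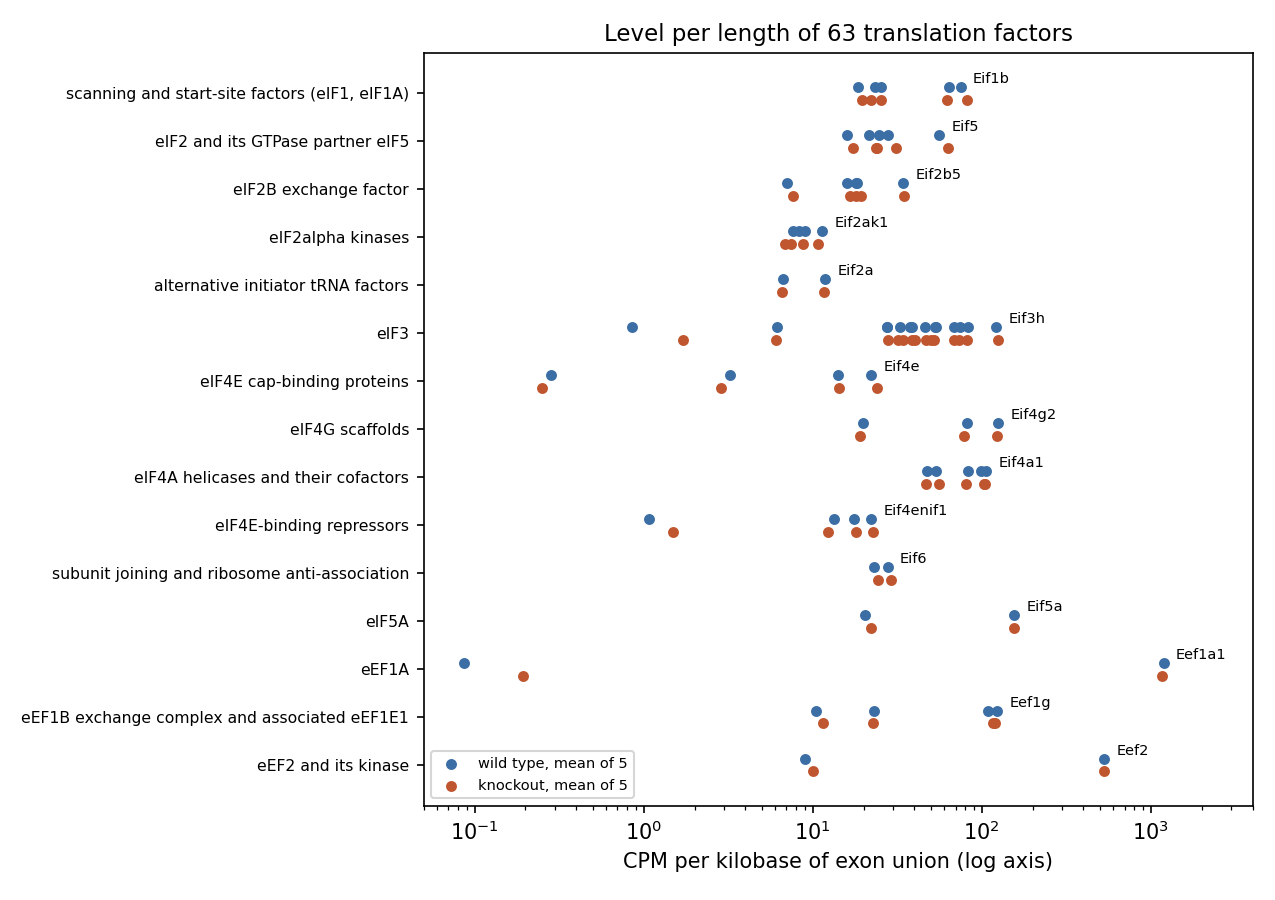
Mean level of each of the 63 factors in CPM per kilobase of exon union on a log axis, by complex in rows, with blue points for wild type and orange points below them for knockout (mean of 5 mice each). The top member of each complex is named; Eef1a1 at 1190.5 and Eef2 at 532 in wild type stand apart from the rest, and wild-type and knockout points lie close together in nearly every row.

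The scanning ribosome is held in its open state by eIF1 and eIF1A. None of the 5 genes grouped here by these names passed, and the role of each was not examined. All 5 intervals lay within 1.2-fold, with log2 fold changes from -0.07 for Eif1ad to 0.12 for Eif1b. Eif1 had 134 ± 3.24 CPM in wild-type mice and 130.2 ± 8.63 in knockout mice, and Eif1ax, the X-linked eIF1A gene, had 133 ± 4.64 and 133 ± 3.32. Eif1b, the second eIF1 gene, had a log2 fold change of 0.12 (SE 0.051, adjusted p = 0.125 by edgeR) and Eif1a, the autosomal eIF1A gene, one of 0.08 (SE 0.039, adjusted p = 0.216 by edgeR). The ratio of Eif1 to Eif1b counts was 1.47 to 1.73 in wild type and 1.22 to 1.66 in knockout, so the genotypes overlapped.

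eIF2 carries the initiator tRNA, and eIF5 makes it hydrolyse its GTP at the start codon. In this group of 5 genes, 1 rose and 4 did not pass, and the median log2 fold change was 0.14, the largest of the 15 groups by size. Eif5 (chr12:111538016-111546752, plus strand, GRCm38) had 366, 360.0, 409, 385 and 394 CPM in wild-type libraries 3, 4, 5, 6 and 9. In knockout libraries 8 to 12 it had 411, 407, 421, 458 and 470.1 CPM. Wild-type library 5 reached above the lowest knockout library, number 9, so the groups touched, while knockout libraries 11 and 12 stood highest.

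Eif5 had a log2 fold change of 0.18 (SE 0.053, adjusted p = 0.0431 by edgeR), a fold of 1.13 with a 95% interval of 1.05 to 1.23. This call was lost when any of wild-type libraries 3, 4, 6 or 9 or knockout libraries 11 or 12 was left out, with adjusted p between 0.0636 and 0.108 by edgeR. It held in the other 10 of 16 alternative settings.

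The subunits of eIF2 itself did not pass. Eif2s1, the α subunit that the stress kinases phosphorylate, had 107 ± 7.94 CPM in wild type and 118 ± 7.04 in knockout, with a log2 fold change of 0.14 (SE 0.058, adjusted p = 0.118 by edgeR). Eif2s2, the β subunit to which eIF5 and eIF2B bind, had 108 ± 4.52 and 117 ± 6.37 CPM, with a log2 fold change of 0.12 (SE 0.047, adjusted p = 0.116 by edgeR). Wild-type libraries 3 and 4 were lowest for both.

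The γ subunit, the GTPase of eIF2, has a copy on each sex chromosome, and the Y-linked copy is known for its role in the proliferation of spermatogonia. Eif2s3y had 114, 111, 122, 115 and 116 CPM in the wild-type libraries in the order above and 122, 122, 108, 153 and 139.8 CPM in knockout libraries 8 to 12. Wild type lay within a narrow band, and the knockout spread from below that band (library 10) to well above it (libraries 11 and 12). The log2 fold change of Eif2s3y was 0.16 (SE 0.080, adjusted p = 0.197 by edgeR). Without knockout library 10 it passed, with an adjusted p of 0.0485 by edgeR. The summed germ cell markers were also lowest in knockout library 10, at 1638 CPM, and highest in libraries 11 and 12, at 1968 and 2072 CPM, where Eif5 and Eif3e were highest too. Knockout libraries 8 and 9 had sums of 1932 and 1956 CPM but less Eif5 and Eif3e than library 10. In wild type, library 3 had the lowest sum, 1295 CPM, and the highest Eif3e, 191 CPM. Wild-type library 6 had the highest sum, 1821 CPM, and the lowest Eif3e, 178 CPM. The part of the germ cells in these values was not tested.

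Eif2s3x had 97.3, 94.4, 94.8, 93.5 and 92.2 CPM in wild type and 88.3, 87.7, 98.3, 92.3 and 87.7 CPM in knockout. Here knockout library 10 was the highest of the 10. The ratio of Eif2s3x to Eif2s3y counts was therefore 0.780 to 0.856 in wild type and 0.723, 0.717, 0.914, 0.602 and 0.627 in knockout libraries 8 to 12. The difference in the mean log2 ratio was -0.21 (exact two-sided permutation test over mice, p = 0.0952, adjusted p = 0.190 over 8 pairs of paralogs).

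eIF2B recharges eIF2 with GTP and is the point at which phosphorylated eIF2α blocks initiation. None of its 5 subunit genes passed, and 4 of the 5 intervals lay within 1.2-fold. Their log2 fold changes ran from -0.01 for Eif2b4 to 0.11 for Eif2b3. Eif2b5, the catalytic ε subunit, had 89.3 ± 5.46 CPM in wild type and 89.6 ± 2.58 in knockout. Eif2b3, the γ subunit, had 46.1 ± 5.50 and 49.7 ± 2.82 CPM. Wild-type libraries 3 and 4 were the lowest of the 10 for Eif2b3.

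The kinases of eIF2α answer to haem shortage (Eif2ak1, HRI), double-stranded RNA (Eif2ak2, PKR), unfolded protein (Eif2ak3, PERK) and uncharged tRNA (Eif2ak4, GCN2). Of these 4 genes 1 fell and 3 did not pass, and all 4 log2 fold changes were below 0, with each scaling of the libraries that was tried. Eif2ak2 (chr17:78852564-78882573, minus strand, GRCm38) had 47.5, 43.6, 40.3, 38.3 and 43.4 CPM in wild-type libraries 3, 4, 5, 6 and 9. In knockout libraries 8 to 12 it had 34.4, 34.3, 37.9, 35.9 and 34.1 CPM. The genotypes did not overlap, and the gap between wild-type library 6 and knockout library 10 was small.

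The log2 fold change of Eif2ak2 was -0.27 (SE 0.060, adjusted p = 0.0135 by edgeR), a fold of 0.829 with a 95% interval of 0.756 to 0.908. It was called in all 16 alternative settings, with adjusted p from 0.000796 to 0.0366. Eif2ak4 had 67.4 ± 3.92 CPM in wild-type mice and 65.2 ± 3.32 in knockout mice, and Eif2ak1 had 64.2 ± 3.07 and 60.6 ± 0.979. The log2 fold change was -0.05 (SE 0.051, adjusted p = 0.577 by edgeR) for Eif2ak4 and -0.08 (SE 0.040, adjusted p = 0.197 by edgeR) for Eif2ak1. The sums of the Sertoli cell markers above were lower in every knockout library than in every wild-type library, in the same direction as Eif2ak2, and their part in this result was not tested.

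Eif2a and Eif2d, which can bring initiator tRNA to the ribosome without eIF2, did not pass. Eif2a had 72.1 ± 2.58 CPM in wild type and 71.4 ± 2.23 in knockout. Eif2d had 49.1 ± 2.63 and 48.3 ± 2.30 CPM. Both intervals lay within 1.2-fold.

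**Figure D3:**
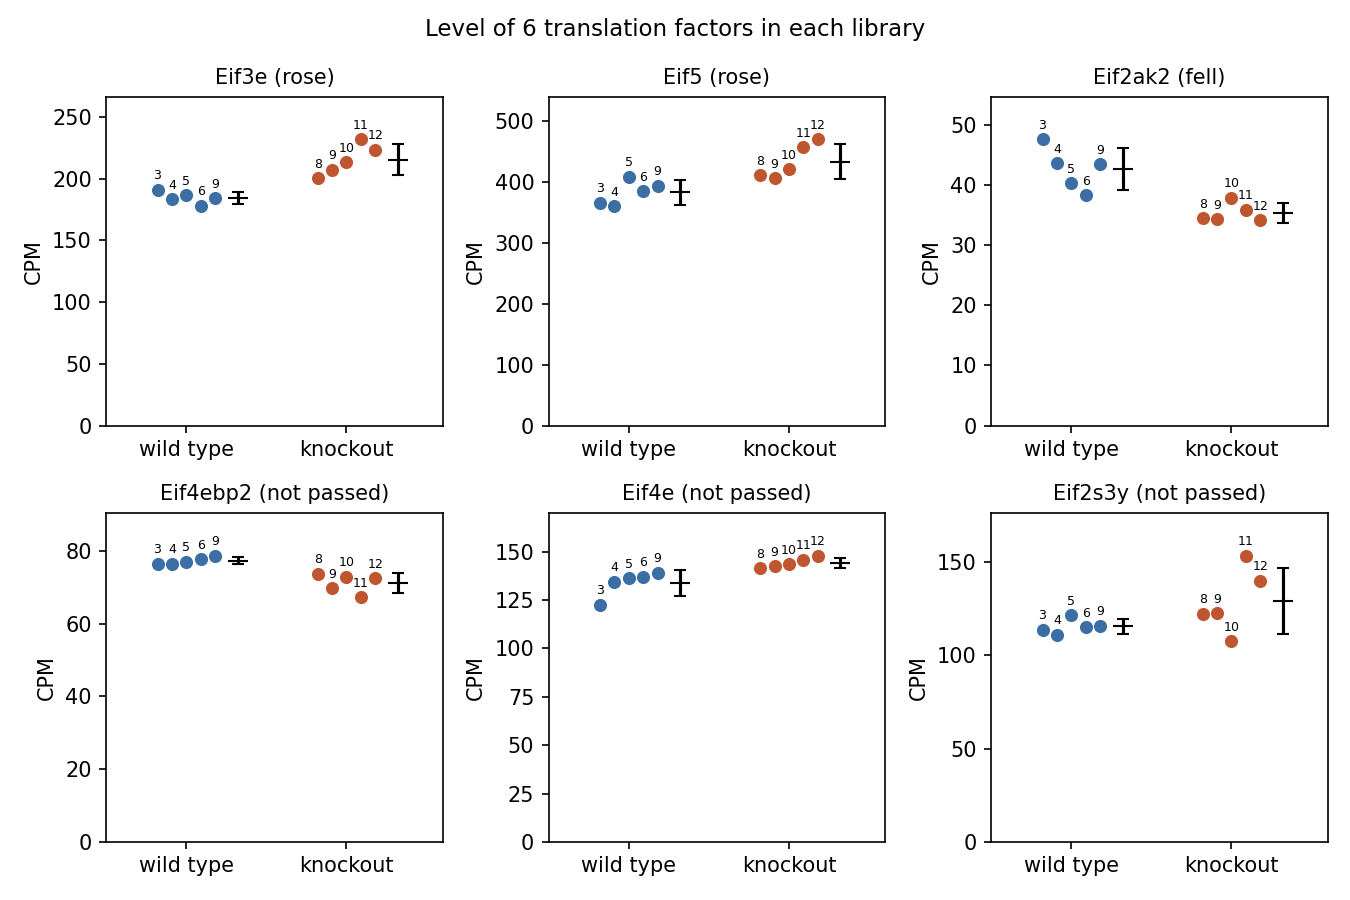
Level in CPM (vertical axis, from 0) of 6 factors in each library, with blue points for the 5 wild-type and orange points for the 5 knockout mice, the library number above each point, and the mean with 1 SD beside each group. Knockout points lie above all wild-type points for Eif3e and Eif4e and below them for Eif2ak2 and Eif4ebp2, while the groups overlap for Eif5 and Eif2s3y.

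eIF3 is the largest initiation factor and keeps the small subunit open for the other factors. Its 14 genes were all tested, 1 rose, 13 did not pass, and the median log2 fold change was 0.02. Eif3e (chr15:43250058-43282719, minus strand, GRCm38), a subunit of the outer octamer, had 191, 183, 187, 178 and 184 CPM in wild-type libraries 3, 4, 5, 6 and 9. In knockout libraries 8 to 12 it had 200.5, 207, 213, 232 and 223 CPM. Every knockout library lay above every wild-type library, and knockout libraries 11 and 12 were again the highest.

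Eif3e had a log2 fold change of 0.22 (SE 0.044, adjusted p = 0.00777 by edgeR), a fold of 1.17 with a 95% interval of 1.09 to 1.25, and it was called in all 16 alternative settings with adjusted p from 0.000171 to 0.0229. Its pseudogene Eif3s6-ps2 had a mean of 33.9 counts per library. No source used here states how reads with several alignments were counted.

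The other subunits of eIF3 stayed closer to their wild-type levels. Leaving out Eif3e and Eif3j2, their log2 fold changes ran from -0.10 for Eif3a to 0.07 for Eif3m. Eif3a, the scaffold subunit and the one with the most counts of the complex, had 471 ± 16.8 CPM in wild type and 441 ± 15.2 in knockout, with a log2 fold change of -0.10 (SE 0.039, adjusted p = 0.113 by edgeR). DESeq2, run as an alternative, called it lower with an adjusted p of 0.0466. Eif3c, a core subunit, had 292 ± 16.5 and 287 ± 7.54 CPM. Eif3j2 had the widest interval of all members, a fold of 0.779 to 5.22, because 2 wild-type libraries were near 0.

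**Figure D4:**
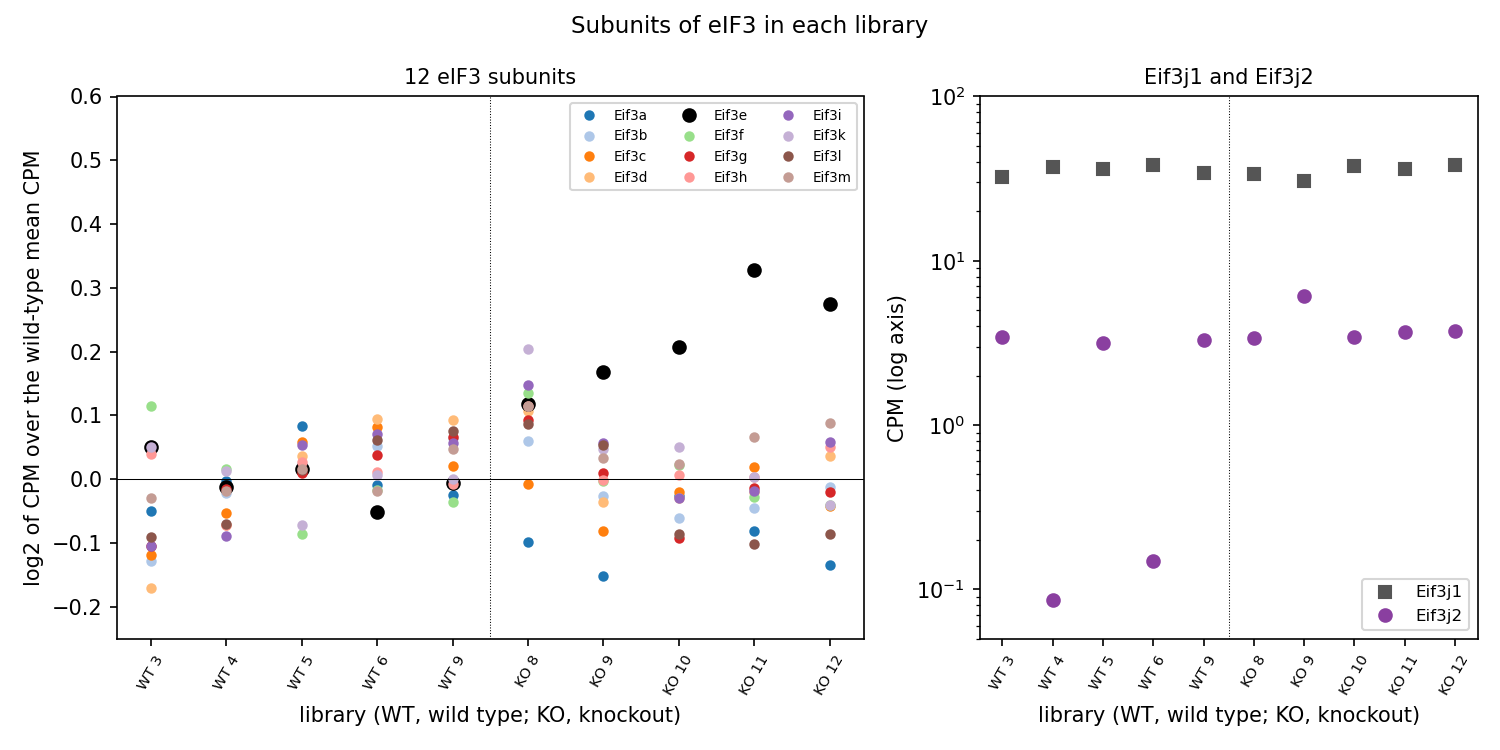
Left, the log2 of each library's CPM over the wild-type mean CPM for 12 eIF3 subunits, by library, with Eif3e in black; right, CPM of Eif3j1 and Eif3j2 on a log axis by library. Eif3e lies above the other 11 subunits in knockout libraries 9 to 12 but not in library 8, and Eif3j2 is near 0 in wild-type libraries 4 and 6 at 0.0863 and 0.149 CPM.

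The cap of the mRNA is bound by eIF4E. None of its 4 genes passed, with log2 fold changes from -0.19 for the scarce Eif4e3 to 0.11 for Eif4e. Eif4e had 123, 134, 136, 137 and 139 CPM in the wild-type libraries and 141, 142, 143, 146 and 148 CPM in the knockout libraries. The genotypes did not overlap, although the highest wild-type and lowest knockout libraries nearly met, and wild-type library 3 stood below the rest. The log2 fold change of Eif4e was 0.11 (SE 0.040, adjusted p = 0.0935 by edgeR), and it passed when libraries were scaled by their totals alone (adjusted p = 0.0378 by edgeR). Eif4e2, which binds the cap without eIF4G and is known as a repressor, had 106 ± 2.66 and 108 ± 3.43 CPM.

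The ratio of Eif4e to Eif4e2 counts was 1.17 to 1.32 in wild type and 1.29 to 1.41 in knockout. The difference in the mean log2 ratio was 0.08 (exact two-sided permutation test over mice, p = 0.0476, adjusted p = 0.190 over 8 pairs). It thus missed the threshold once the 8 pairs were taken into account.

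The repressors that compete with eIF4G for eIF4E are the 4E-binding proteins and the transporter Eif4enif1. None of these 4 genes passed. Eif4ebp2, the 4E-BP known best from neurons, had 76.5, 76.5, 77.0, 77.7 and 78.7 CPM in wild type and 73.7, 69.8, 72.9, 67.2 and 72.5 CPM in knockout. The wild-type values lay within a few CPM of each other and all above the knockout values. Eif4ebp2 had a log2 fold change of -0.12 (SE 0.037, adjusted p = 0.0520 by edgeR), just outside the threshold. It was called lower by DESeq2 (adjusted p = 0.0115) and by edgeR without knockout library 8 (adjusted p = 0.0433), and in none of the other 14 settings.

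Eif4enif1 (4E-T), which carries eIF4E to the nucleus and to P-bodies, had 142 ± 11.6 CPM in wild type and 146 ± 5.57 in knockout. Eif4ebp3 was scarce, at 0.628 to 0.877 CPM in wild type and 0.835 to 1.46 in knockout. Its log2 fold change of 0.46 had a wide error (SE 0.173, adjusted p = 0.0977 by edgeR).

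The scaffold eIF4G joins the cap-binding protein to the helicase and to eIF3. None of its 3 genes passed and all 3 intervals lay within 1.2-fold. Eif4g2 (DAP5), which lacks the eIF4E site, had 1277 ± 19.4 CPM in wild type and 1247 ± 47.7 in knockout. Eif4g1 had 601 ± 18.9 and 572 ± 15.6 CPM, and Eif4g3, a paralog known to be needed in spermatocytes, had 220.2 ± 8.05 and 210.2 ± 15.9. The 3 log2 fold changes were -0.03, -0.07 and -0.07, and that of Eif4g2 turned above 0 when libraries were scaled by their totals alone. The ratio of Eif4g1 to Eif4g3 counts was 2.61 to 2.92 in wild type and 2.52 to 2.99 in knockout.

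The helicase eIF4A unwinds the 5′ leader, with eIF4B and eIF4H as its cofactors. None of the 5 genes grouped here by these names passed, and the role of each was not examined. All 5 intervals lay within 1.2-fold, with log2 fold changes from -0.03 for Eif4h to 0.06 for Eif4a3. Eif4a2 had 530.4 ± 50.2 CPM in wild type and 549 ± 21.4 in knockout, with wild-type library 3 the highest of the 10. Eif4a1 had 458 ± 13.4 and 453 ± 11.6 CPM. Their ratio, Eif4a1 to Eif4a2, was 0.742 to 0.992 in wild type and 0.753 to 0.877 in knockout.

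Subunit joining is driven by Eif5b, and Eif6 keeps free large subunits from joining too early. Neither passed. Eif5b had 225 ± 19.4 CPM in wild-type mice and 238 ± 7.18 in knockout mice, and Eif6 had 74.99 ± 4.87 and 78.6 ± 4.96. For Eif5a, the values were 371 ± 25.7 and 371 ± 15.4 CPM. For its paralog Eif5a2 they were 102 ± 14.4 and 111 ± 10.8, with wild-type libraries 3 and 4 lowest.

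During elongation, eEF1A and eEF2 act in every cycle, and neither Eef1a1 nor Eef2 passed the test. Eef1a1 had 3149, 2927, 2977, 2930.1 and 2856 CPM in wild type and 3122, 2748, 2925, 2958 and 2803 CPM in knockout. The groups overlapped, with knockout libraries 9 and 12 below the lowest wild-type library and none above the highest. Its log2 fold change was -0.03 (SE 0.045, adjusted p = 0.727 by edgeR), with a fold interval of 0.916 to 1.05. Eef2 had 1767 ± 58.7 CPM in wild type and 1766 ± 77.5 in knockout, with a fold interval of 0.938 to 1.06 (adjusted p = 0.993 by edgeR).

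Eef1a2 had 0.0897 to 0.313 CPM in wild type and 0.257 to 0.766 CPM in knockout, a few counts per library. The difference in the mean log2 ratio of Eef1a1 to Eef1a2 counts was -1.17 (exact two-sided permutation test over mice, p = 0.0238, adjusted p = 0.190 over 8 pairs), and it rests on those few Eef1a2 counts. Across the 8 pairs none passed after adjustment, and the smallest p that this exact test over mice can give is 0.00794. A pair that reached this p on its own would still not pass after adjustment over 8 pairs. That none passed therefore does not show that the ratios were unchanged.

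The exchange factor eEF1B recharges eEF1A. None of its 3 subunit genes and the associated Eef1e1 passed, and the 4 log2 fold changes ran from -0.04 for Eef1g to 0.12 for Eef1e1. Eef1g had 319 ± 13.6 CPM in wild type and 310.4 ± 12.9 in knockout. Eef1b2, the catalytic subunit, had 277 ± 9.87 and 297 ± 11.0, with a log2 fold change of 0.10 (SE 0.039, adjusted p = 0.111 by edgeR). It was called higher only when libraries were scaled by their totals alone. Eef2k, the kinase that switches eEF2 off, had 62.5 to 72.3 CPM in wild type and 63.8 to 86.6 CPM in knockout, with a log2 fold change of 0.17 (SE 0.070, adjusted p = 0.131 by edgeR). Without knockout library 10, its lowest knockout library, Eef2k passed with an adjusted p of 0.0322 by edgeR.

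A total of 12 of the 62 members had an unadjusted p below 0.05 by edgeR, beside 5562 of all 18559 tested genes, 30.0%. Besides the 3 called, these were Eif4ebp2, Eif4e, Eif4ebp3, Eef1b2, Eif3a, Eif2s2, Eif2s1, Eif1b and Eef2k. By DESeq2, 5 of 63 members passed, namely the 3 called by edgeR together with Eif3a and Eif4ebp2, beside 16.4% of all genes. Scaling by library totals alone gave 6 of 62, adding Eif2s2, Eif4e and Eef1b2 to the 3, beside 14.6% of all genes. Leaving out knockout library 10 also gave 6 of 62, adding Eif2s3y, Eif4ebp3 and Eef2k, beside 15.3% of all genes. The members' share was below that of all genes in each of these settings.

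Individual libraries left a mark on these values. Wild-type library 3 was the lowest of its group for 29 of the 62 tested members and the highest for 17. Knockout library 8 was the highest of its group for 28 and the lowest for 9. Meiotic prophase markers summed to 597 CPM in wild-type library 3 and to 857 to 1458 in the other wild-type libraries. The Sertoli cell markers summed to 2510 CPM in knockout library 8 and 3190 to 3794 in the other knockout libraries. Leydig cell markers also set both libraries apart. They summed to 577 CPM in wild-type library 3 and 366 to 445 in the other wild-type libraries. In knockout library 8 they summed to 214 CPM, with 402.8 to 499.7 in the other knockout libraries. The part of any of these cells in the members' values was not tested.

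The letters of 8 motifs were searched in 300 bases around the RefSeq start, 250 before and 50 after, on both strands, for the 49 members that had such a window. The ETS letters CCGGAAG were in 17 members, 34.7%, beside 9.93% of all 27025 genes with such a window. The GC box GGGCGG was in 75.5% of members and 38.2% of these genes, and the E-box CACGTG in 24.5% and 8.09%. The letters CCAAT were in 32.7% of members, Eif5 among them, and in 41.1% of these genes, and TATAAA was in 10.2% and 15.7%. The response element letters GAAANNGAA shown above for Eif2ak2 were in 4 members, 8.16%, beside 9.76% of all genes with a window. The other members were Eif2s1, Eif2s3x and Eif3a. The half-site of nuclear receptors, AGGTCA, was in 4 members, 8.16%, beside 18.1% of all genes with a window. It lay in the windows of Eif2b2, Eif2s3x, Eif4enif1 and Eif5a. The inverted repeat of that half-site spaced by 1 base, the arrangement known for FXR, was in 0 members and in 0.0111% of all genes with a window. A match or its absence describes these letters in this window only.

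Other genes of translation and its control, 65 in all of which 64 were tested, gave 9 calls, 14.1%, close to the 13.9% of all genes. Among 9 genes of termination and ribosome recycling, Denr, whose product removes tRNA from the small subunit after termination and helps reinitiation, was the 1 that rose. It had 99.2 ± 7.64 CPM in wild type and 115 ± 4.69 in knockout, without overlap, and a log2 fold change of 0.21 (SE 0.055, adjusted p = 0.0274 by edgeR). That call was lost without wild-type library 4 or without knockout library 11 or 12. Among 8 poly(A)-binding proteins and partners tested, Pabpc1l, a germline member, rose from 1.02 ± 0.153 to 1.502 ± 0.199 CPM, with a log2 fold change of 0.56 (SE 0.147, adjusted p = 0.0279 by edgeR), a call kept in 8 of 16 settings. Of 9 mitochondrial translation factors, Gfm1, the mitochondrial elongation factor G, fell from 44.7 ± 0.885 to 39.4 ± 2.82 CPM (log2 fold change -0.18, SE 0.051, adjusted p = 0.0352 by edgeR), a call kept in 5 of 16 settings.

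Downstream of the eIF2α kinases lies the integrated stress response, in which phosphorylated eIF2α raises the translation of the transcription factor ATF4. Of 16 genes of this response, 4 fell, none rose and 12 did not pass. That is 25% lower in the knockout, beside 7.71% of all tested genes. The log2 fold change was above 0 for 10 of the 16 genes and below 0 for 6. Asns, the asparagine synthetase, had 62.0, 67.7, 67.1, 61.2 and 70.3 CPM in wild-type libraries 3, 4, 5, 6 and 9 and 37.1, 46.6, 58.9, 44.8 and 49.0 CPM in knockout libraries 8 to 12. No knockout library reached the wild-type range. Its log2 fold change was -0.47 (SE 0.098, adjusted p = 0.00925 by edgeR).

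Sesn2, the sestrin that restrains mTOR complex 1 when leucine is short, fell from 68.6 ± 7.28 to 50.8 ± 7.28 CPM (log2 fold change -0.43, SE 0.098, adjusted p = 0.0142 by edgeR), with knockout library 9 inside the wild-type range. Asns and Sesn2 were called in all 16 alternative settings. Ddit4, an inhibitor of mTOR complex 1, fell from 122 ± 7.67 to 102 ± 9.12 CPM (log2 fold change -0.26, SE 0.065, adjusted p = 0.0234 by edgeR; called in 12 of 16). Phgdh, the first enzyme of serine synthesis, fell from 116 ± 4.75 to 104 ± 4.77 CPM (log2 fold change -0.15, SE 0.044, adjusted p = 0.0438 by edgeR; called in 5 of 16).

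The other 12 genes of that list did not pass. Atf4, named after its values were seen, had 116 ± 5.64 CPM in wild type and 124 ± 10.9 in knockout (log2 fold change 0.09, SE 0.060, adjusted p = 0.322 by edgeR). The median log2 fold change of the 16 genes was 0.04. The knockout library with the lowest Sertoli and Leydig cell marker sums, number 8, was also the lowest for Asns and Sesn2. The part of those cells in these falls was not tested.

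Of 15 genes of the mTOR complex 1 and MNK pathway, 2 fell and 13 did not pass. That is 13.3% lower in the knockout, beside 7.71% of all tested genes. Akt1s1 (PRAS40), an inhibitory subunit of mTOR complex 1, fell from 55.1 ± 2.87 to 48.2 ± 2.68 CPM (log2 fold change -0.19, SE 0.051, adjusted p = 0.0287 by edgeR; called in 8 of 16 alternative settings). Tsc1, part of the complex that switches off Rheb, fell from 115 ± 3.23 to 106 ± 2.47 CPM (log2 fold change -0.12, SE 0.035, adjusted p = 0.0474 by edgeR; called in 2 of 16). Neither enzyme of hypusine synthesis, which modifies eIF5A, and none of the 5 selenocysteine and other elongation-like factors passed.

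Of 10 core translation factors whose mRNAs belong to the 5′ TOP class, Eif3e was the 1 that rose, and 9 did not pass. The 10 summed to 6664 to 7157 CPM in wild type and 6577 to 7264 CPM in knockout, so the groups overlapped. Their median log2 fold change was 0.00889. Of the 10, 5 were above 0 and 5 below 0. After Eif3e the highest were Eef1b2 at 0.10 and Pabpc1, named after its values were seen, at 0.09. The rise of Eif3e was therefore not shared by the others at a size that passed the test. The differences between these genes' responses were not themselves tested.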

How the data were processed

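Per the labels' protocols, RNA was extracted from frozen testes with Trizol and libraries were made with an Illumina TruSeq RNA kit. Per the submitters' processing notes, FastQC 0.10.1, CASAVA, Bowtie, TopHat2 2.0.10, Bowtie2 2.1.0 and the build mm10 were used. For the read counter, annotation release and use of strand, the entry is: not given in the sources used here. Raw counts per gene, as the authors deposited them, were the input of every test. The table's normalized values, which had lost their decimal marks, were not used. Genotype labels set the groups, and libraries were named by the number in their titles.

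Counts were filtered with filterByExpr, scaled by TMM and tested with edgeR 4.0.16 in R 4.3.3 (two-sided quasi-likelihood F-test with Benjamini-Hochberg adjustment over 18559 genes, call under an adjusted p of 0.05). A positive log2 fold change means a higher level in the knockout. Positions and exon lengths came from GENCODE M21 (GRCm38, the same build as mm10), to which all 63 members matched by identifier, and start regions from RefSeq (GRCm38.p6). Ratios of 8 pairs of paralogs were tested with exact two-sided permutation tests over mice (scipy 1.17.1). The edgeR step was tested on simulated data. Alternatives were DESeq2 1.42.0, other scalings and filters, and leaving out libraries.

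The members and lists were chosen with earlier results of these data known. The rule for names took members and listed genes that passed, the 2 members of each complex with the most counts, both genes of each pair of paralogs, untested members and Nr1h4. Other members named (Eif2s1, Eif2s2, Eif3h, Eif3j1, Eif3j2, Eif3m, Eif4b, Eif4h, Eif4a3, Eif1ad, Eif2b2, Eif2b4, Eef1e1, Eif4e3, Eif4e1b, Eif4ebp3, Eif2ak3, Eef1d) were chosen after their values were seen. Libraries came from separate mice, so p-values measure the spread between mice.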

Additional observations from a re-analysis of the deposited data

Results flagged for a closer look

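In 8 of 142 groups of 5 libraries, 1 library stood apart from the other 4 by Dixon's criterion on log2 CPM. Chance flags about 1 in 20 groups. In wild type, library 3 was low for Eif4e (6.94, the others 7.07 to 7.12) and high for Eif4h (8.08, the others 8.04 to 8.05), library 9 was high for Eif4a1 (8.91, the others 8.81 to 8.84), and library 6 was low for Eif4ebp3 (-0.64, the others -0.27 to -0.16). In knockout, library 8 was high for Eif6 (6.45, the others 6.23 to 6.28) and for Eef1d (7.30, the others 7.16 to 7.20), and library 9 was low for Eif2a (6.08, the others 6.17 to 6.19). Knockout library 9 was also high for Eif3j2, at 2.61 with the others at 1.77 to 1.90.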

How the results depend on the processing

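No paired analysis was possible because the titles of wild-type and knockout libraries share only 1 number, 9. Eif3e and Eif2ak2 were called in all 16 alternatives and Eif5 in 10. The count of members changed, 3, became 5 with DESeq2, 6 with library totals only and 5 without knockout libraries 9 and 10, where 16.4%, 14.6% and 13.1% of all genes passed. It ranged from 2 to 6 when each library was left out in turn, with 6 without knockout library 10 (15.3% of all genes). Over all genes the count of 2576 ranged from 1427 (without knockout library 11) to 2867 when each library was left out, with 1635 when knockout library 12 and 1601 when wild-type library 4 was left out. The count of other translation genes changed, 9, was 5 with no low-count filter and ranged from 2 to 9 when each library was left out. It was 2 without knockout library 11 or 12 or wild-type library 4, 3 without wild-type library 9, and 5 without knockout library 9 or wild-type library 5 or 6. No pair of paralogs passed under any alternative run, but a pair changed on its own could not have passed in any of them. Of all calls, 44.5% were higher in the knockout with TMM, 53.0% with upper-quartile factors and 61.5% with library totals only. No called member changed sign. Counts without a library come from fewer mice, and that with no low-count filter from more genes tested. For the other shifts the cause was not tested. Eif4e1b and Eif4ebp3, at about 1 CPM or less, have intervals too wide to show the small differences seen for abundant members.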

Other observations

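Eif3j2, a second gene for the loosely bound j subunit of eIF3, had 114, 3, 101, 5 and 109 counts in wild-type libraries 3, 4, 5, 6 and 9 and 115, 225, 136, 141 and 145 counts in knockout libraries 8 to 12. Wild-type libraries 4 and 6 were thus near 0, knockout library 9 had the most counts, and the other 7 libraries lay between 3.16 and 3.72 CPM. Eif3j1, its close relative, had 30.4 to 38.3 CPM in the 10 libraries, so the sum of both was 35.6 to 41.9 CPM. Eif3j2 made up 0.230% and 0.389% of that sum in wild-type libraries 4 and 6, 16.7% in knockout library 9 and 7.99% to 9.63% in the other 7. Reads of so similar a pair may be shared between them. The search took 18707 genes with a mean of at least 10 counts over the 8 libraries other than wild-type libraries 4 and 6. Of these, 8 had both wild-type libraries 4 and 6 below 0.5 of the lowest other library. This rule was chosen after the values of Eif3j2 were seen, and its filter used only the libraries where the pattern is high. The genes found were Eif3j2, its neighbour Gm3650, Gchfr and Gm13999 on chromosome 2, where Eif3j1 also lies, and Gm3555, Gm10263, Gm15726 and Gm21887. Of the 18707 genes, 1553 lay on chromosome 2. Of these 8 genes, 5, Eif3j2 among them, had their highest value in knockout library 9, a share that was not counted over all genes.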
